A study of Mus musculus with 9 samples.

Results

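Matrix metalloproteinases are secreted or membrane-bound enzymes that cut collagens and other proteins of the extracellular matrix, and the tissue inhibitors of metalloproteinases (Timps) bind and block them. The genes described here were chosen by name, as the rows of the expression table labelled Mmp2, Mmp3, Mmp9, Mmp10, Mmp11, Mmp13, Mmp14, Timp1, Timp2 and Timp3, and all 10 were found among the 35275 genes listed. Of these, 7 were counted well enough to be tested, while Mmp3, Mmp10 and Mmp13 were too weakly counted. RNA was sequenced from mouse embryonic fibroblasts (MEFs) of the strain C57Bl/6, which the study describes as wild type. They were kept in iso-osmolar control medium or exposed for 3 h to low intensity hyperosmotic stress (500 mOsm, with 200 mM sucrose added) or high intensity hyperosmotic stress (600 mOsm, with 300 mM sucrose added), with 3 libraries per treatment. The study asked which genes separate the low from the high intensity of stress.

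Most metalloproteinases are made as inactive proenzymes, so their mRNA level is not their activity. Mmp14, which sits in the plasma membrane, activates pro-Mmp2 at the cell surface with the help of Timp2, and fibroblasts are a main source of Mmp2, Mmp14 and Timps in connective tissue. The collagenase and stromelysin genes are usually near silent in resting fibroblasts and are classical targets of the transcription factor AP-1.

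The libraries held 21716042 to 26740832 counts on genes, of which the 10 genes took 0.242% to 0.266%. A count of 3 in a library corresponded to 0.113 to 0.137 CPM (counts relative to the size of the library), a floor for counting error alone. More genes had a count at 500 mOsm (18920 to 19222 per library) than at 600 mOsm (17846 to 18031) or in control medium (16452 to 16871). The 8 fibroblast markers looked up (Col1a1, Col1a2, Col3a1, Pdgfra, Pdgfrb, Thy1, Vim and Fn1) each had a mean FPKM above 1 in every treatment. The labels do not say that the libraries came from separate cultures, so p-values measure the spread between these libraries. In bulk RNA, fewer cells of a type and less RNA per cell cannot be told apart.

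Inhibitor transcripts outweighed protease transcripts in these cells. In FPKM, a level scaled to gene length and library total, the order of the 7 tested genes was the same in all 3 treatments, namely Timp1, Timp2, Mmp2, Mmp14, Timp3, Mmp11 and Mmp9, and no neighbours in it overlapped between libraries of a treatment. In iso-osmolar medium, Timp1 (693 ± 13.6 FPKM, SD, n = 3) ranked 85th of all genes by level, Timp2 (265 ± 0.438) ranked 245th and Mmp2 (156 ± 4.24) ranked 476th. Mmp14 stood at 109 ± 6.01 FPKM, Timp3 at 54.9 ± 3.77, Mmp11 at 2.48 ± 0.155 and Mmp9 at 0.140 ± 0.0418. At 600 mOsm and in the control medium the 3 weakly counted genes lay below all of these, and their libraries overlapped each other, as did those of Mmp9 and Mmp3 at 500 mOsm.

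**Figure D1:**
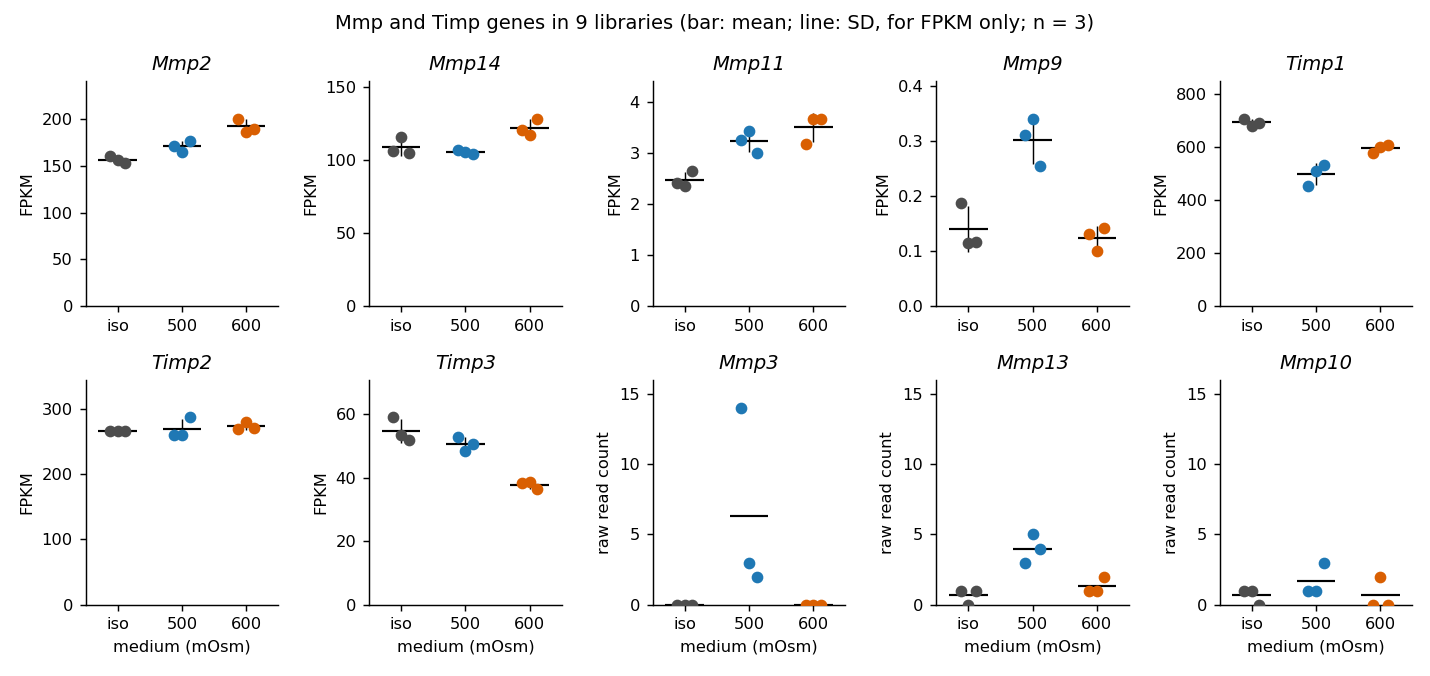
Level of each gene in every library by osmolarity of the medium. Vertical axes start at 0 and give FPKM for 7 genes and raw read counts for Mmp3, Mmp13 and Mmp10, points are libraries, bars are means and thin lines are SD (n = 3, FPKM panels only). Timp1 was lowest at 500 mOsm, Timp3 was lowest at 600 mOsm, and Mmp9 and Mmp13 were highest at 500 mOsm.

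Against iso-osmolar medium, Mmp2, Mmp9 and Mmp11 were higher and Timp1 was lower at 500 mOsm, while Mmp2, Mmp11 and Mmp14 were higher and Timp1 and Timp3 were lower at 600 mOsm. These calls are an adjusted p under 0.05 in edgeR's quasi-likelihood test with Benjamini-Hochberg adjustment over 13082 genes. At 500 mOsm 4 of the 7 tested genes were called, 3 higher and 1 lower, where 28.0% of all genes tested were called (13.2% higher and 14.8% lower). At 600 mOsm 5 of 7 were called, 3 higher and 2 lower, where 35.1% of all genes were (15.1% higher and 20.0% lower). Between 600 and 500 mOsm 5 of 7 were called (Mmp2, Mmp14 and Timp1 higher and Mmp9 and Timp3 lower at 600 mOsm), where 29.1% of all genes were (11.9% higher and 17.2% lower). The libraries of the groups compared did not overlap in CPM for 4, 5 and 5 of the 7 genes, beside 40.9%, 48.4% and 41.5% of all genes tested. The shares for all genes include many low genes that are harder to call. Of the 5 members whose log2 CPM averaged 7 or more (Mmp2, Mmp14, Timp1, Timp2 and Timp3), 2, 4 and 4 were called in these comparisons, beside 22.8%, 48.2% and 40.5% of the 1690 genes at that level. The median log2 fold change of the 7 genes was 0.020, 0.058 and 0.14, against 0.013, 0.0075 and 0.0061 for all genes tested. The 3 comparisons share libraries and are therefore not independent of one another.

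**Figure D2:**
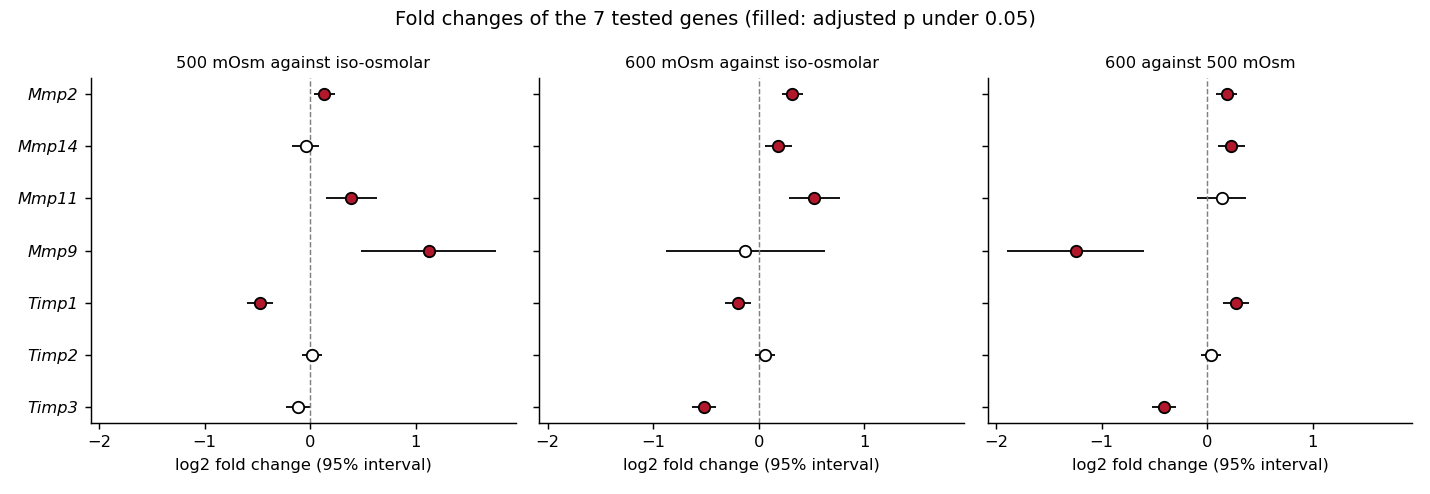
Log2 fold change of the 7 tested genes in each comparison, with the 95% interval of the edgeR fit as a horizontal line. Filled points have an adjusted p under 0.05. Mmp9 has the widest interval in each panel and the largest change in both comparisons with 500 mOsm, Timp1 and Timp3 moved in opposite directions between 600 and 500 mOsm, and Timp2 lies near 0 throughout.

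Mmp2 (gelatinase A, which cuts denatured collagen and basement membrane collagen) was counted 10622 to 15316 times per library. It lies on chromosome 8 of mm10 (chr8:92827328-92853417, plus strand). Its FPKM was 161, 156 and 153 in the iso-osmolar libraries, 172, 165 and 176 at 500 mOsm and 201, 187 and 189.7 at 600 mOsm. The libraries of the 3 treatments did not overlap, and the level went up with osmolarity. The rise was 1.10-fold at 500 mOsm (log2 fold change 0.13 ± 0.046 SE, adjusted p = 0.0477) and 1.25-fold at 600 mOsm (0.32 ± 0.046, adjusted p = 1.95e-04), and 600 mOsm exceeded 500 mOsm by 0.19 ± 0.046 on the log2 scale (adjusted p = 0.00867). The call at 500 mOsm was the least secure of the gene. It was lost when any of 8 single libraries was left out, namely every library except 600 mOsm replicate 2 (adjusted p 0.0557 to 0.190), and under 5 other settings.

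Mmp9 (gelatinase B, chr2:164940780-164955850, plus strand) was the protease with the largest change and the fewest counts among the tested genes. The study examined it as a target of the osmoadaptive factor TonEBP. In deficient MEFs it reported that Mmp9 depended on TonEBP and on NF-κB c-Rel, and it concluded that Mmp9 is a positive target of both together. All libraries here are from wild-type cells, so the response of Mmp9 does not test that dependence and is not evidence of that grouping. The iso-osmolar libraries held 13, 9 and 9 counts, the 500 mOsm libraries 24, 29 and 21, and the 600 mOsm libraries 10, 7 and 12. Every 500 mOsm library lay above every other library, and the iso-osmolar and 600 mOsm libraries overlapped. Mmp9 was 2.17-fold higher at 500 mOsm than in control medium (log2 fold change 1.12 ± 0.295 SE, adjusted p = 0.0123) and lower at 600 than at 500 mOsm (-1.25 ± 0.299, adjusted p = 0.00746). At 600 mOsm its difference from iso-osmolar medium was -0.13 with a 95% interval of -0.88 to 0.63 (adjusted p = 0.824). The call at 500 mOsm was lost without iso-osmolar replicate 2 (adjusted p = 0.0547), iso-osmolar replicate 3 (0.0562) or 500 mOsm replicate 2 (0.0544) and in DESeq2 (0.0836), while the call between the intensities held in every alternative in which it was tested.

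Because Mmp9 is also expressed by neutrophils and macrophages, markers of those cells were read beside it. The summed FPKM of 5 neutrophil markers (S100a8, S100a9, Elane, Mpo and Csf3r) ranged over 2.76 to 12.1 in control medium, 4.14 to 25.0 at 500 mOsm and 6.55 to 24.9 at 600 mOsm, and these ranges overlapped. Of 6 macrophage markers 5 were found by symbol, with sums of 6.12 to 9.79, 8.74 to 19.5 and 8.17 to 17.2. The pan-leukocyte gene Ptprc had 0 to 1 counts in control medium, 3 to 7 at 500 mOsm and 0 to 1 at 600 mOsm. Itgam had 0 to 2, 35 to 61 and 3 to 5 counts in these treatments, and Csf1r had 232 to 294, 367 to 381 and 210 to 275. These genes were likewise highest at 500 mOsm. Lyz2 (78 to 172, 112 to 486 and 163 to 422 counts) and Cd68 (21 to 36, 38 to 47 and 36 to 42) overlapped between 500 and 600 mOsm. The part of such transcripts in the Mmp9 result was not tested.

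Mmp14 (membrane type 1 metalloproteinase, chr14:54431604-54441258, plus strand) was higher at high intensity stress alone. Its FPKM was 106, 116 and 105 in control medium, 107, 106 and 104 at 500 mOsm and 120.4, 117 and 128 at 600 mOsm. The 600 mOsm libraries lay above all 500 mOsm libraries, whereas in CPM the highest iso-osmolar library (303) lay just above the lowest 600 mOsm library (301). Mmp14 was 1.17-fold higher at 600 than at 500 mOsm (log2 fold change 0.23 ± 0.058 SE, adjusted p = 0.0113) and 1.14-fold higher than in control medium (0.18 ± 0.058, adjusted p = 0.0275). At 500 mOsm it differed from iso-osmolar medium by -0.042 (95% interval -0.17 to 0.085, adjusted p = 0.655). The call against iso-osmolar medium was lost without iso-osmolar replicate 1 (adjusted p = 0.0966) or 3 (0.113), or without 600 mOsm replicate 1 (0.0605) or 3 (0.119).

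Mmp11 (stromelysin-3, chr10:75923222-75932502, minus strand), which is unusual among secreted family members in being activated inside the cell by furin, was higher under both intensities. Its FPKM was 2.42, 2.36 and 2.65 in control medium, 3.27, 3.43 and 3.004 at 500 mOsm and 3.19, 3.68 and 3.68 at 600 mOsm. All 6 stressed libraries lay above the iso-osmolar ones, and the libraries of the 2 intensities overlapped. The rise was 31.0% at 500 mOsm (log2 fold change 0.39 ± 0.112 SE, adjusted p = 0.0198) and 43.9% at 600 mOsm (0.52 ± 0.111, adjusted p = 0.0030). The difference between the intensities was 0.14 with a 95% interval of -0.098 to 0.37 (adjusted p = 0.385). At 500 mOsm the call was lost without iso-osmolar replicate 1 (adjusted p = 0.0642) or 2 (0.0652), without 500 mOsm replicate 2 (0.0851) and in DESeq2 (0.0540).

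The collagenase Mmp13 and the stromelysins Mmp3 and Mmp10, which cut a broad range of matrix proteins and can activate other proenzymes, lie in a cluster of 10 Mmp genes on chromosome 9 (chr9:7272514-7699585 in mm10). All 3 were near 0. Their proximal promoters are shown because these genes share an AP-1 site and a TATA box, which the other members with an entry do not have. RefSeq promoter entries (GRCm38.p6) were found for 8 of the 10 genes, and not for Mmp2 and Mmp9. The 120 bases before the RefSeq start are printed 5′ to 3′ with the AP-1 site (TGANTCA) and the TATA box (TATAAA) in capitals.
Mmp3, chr9:7445702-7445821, plus strand: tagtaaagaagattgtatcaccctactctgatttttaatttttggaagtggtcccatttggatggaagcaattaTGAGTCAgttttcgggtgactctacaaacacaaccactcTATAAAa
Mmp10, chr9:7502222-7502341, plus strand: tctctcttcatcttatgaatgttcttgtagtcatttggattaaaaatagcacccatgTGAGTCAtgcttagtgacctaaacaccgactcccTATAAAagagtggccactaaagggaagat
Mmp13, chr9:7272394-7272513, plus strand: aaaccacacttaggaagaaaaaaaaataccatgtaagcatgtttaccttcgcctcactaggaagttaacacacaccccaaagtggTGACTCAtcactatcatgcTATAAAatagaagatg

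Within 250 bases before the start, searched on both strands, each of the 3 promoters held 1 AP-1 site and 1 TATA box. The AP-1 site lay 46 to 40 bases before the start in Mmp3, 63 to 57 in Mmp10 and 35 to 29 in Mmp13. The TATA box lay 7 to 2, 29 to 24 and 16 to 11 bases before the start, so that the positions differed between the genes. Neither sequence was found in the windows of Mmp11, Mmp14, Timp1, Timp2 and Timp3. Over all 32851 promoter windows, 6.75% held the AP-1 site and 12.4% held the TATA box. The tonicity element bound by TonEBP was found in none of the 8 windows and in 2.30% of all windows. A match describes the sequence and is not evidence of binding.

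Mmp3 (chr9:7445822-7455972, plus strand) had 0 counts in all iso-osmolar and all 600 mOsm libraries and 14, 3 and 2 counts at 500 mOsm. Its 19 counts at 500 mOsm (95% Poisson interval 11.4 to 29.7, counting error only) were at least 1.93-fold higher than a floor of 3 counts per library in the iso-osmolar libraries and at least 2.00-fold higher than that floor at 600 mOsm. Replicate 1 gave 14 of the 19, and without it 5 counts were left. Mmp3 did not pass the filter on low counts, but with no filter it was called between 500 mOsm and iso-osmolar medium (adjusted p = 0.00170) and between the intensities (0.00179), as it was in DESeq2 (0.0396 and 0.0389). Mmp13 (chr9:7272514-7283333, plus strand) had 1, 0 and 1 counts in control medium, 3, 5 and 4 at 500 mOsm and 1, 1 and 2 at 600 mOsm, so its 500 mOsm libraries lay above all others. With no filter it was not called at 500 mOsm (adjusted p = 0.172). Mmp10 (chr9:7502352-7510238, plus strand) had 1, 1 and 0, then 1, 1 and 3, then 0, 2 and 0 counts, and the treatments overlapped.

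A separation at such low counts was common at 500 mOsm. Of 5997 untested genes with at least 5 counts in all, 26.0% had every 500 mOsm library above every iso-osmolar library and 4.72% had the reverse, and 17.2% had every 600 mOsm library below every 500 mOsm library, so that 2 of 3 weak members with this pattern are read against that background. Some markers of other cell types were also highest at 500 mOsm. Pecam1, an endothelial gene, had 4 to 11 counts in control medium, 265 to 314 at 500 mOsm and 31 to 53 at 600 mOsm, and the epithelial gene Cdh1 had 0 to 1, 86 to 91 and 1 to 4. Of the other endothelial markers, Kdr (6 to 11 counts) and Tek (12 to 13) were highest at 500 mOsm too, whereas Cdh5 was not (11 to 14, 12 to 18 and 17 to 19 counts). Of the other epithelial markers, Krt14 had at most 5 counts with overlapping treatments, Epcam had at most 1 and Krt5 had 0 throughout. Over the whole chromosome 9 cluster, the libraries held 2, 2 and 1 counts in control medium, 29, 19 and 15 at 500 mOsm and 8, 11 and 12 at 600 mOsm. Without Mmp3 the 500 mOsm libraries still held 15, 16 and 13 counts. These raw counts lay only narrowly above the 8, 11 and 12 at 600 mOsm, and they are not scaled to library size. How reads that match several of these related genes were assigned is not given in the sources used here.

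**Figure D3:**
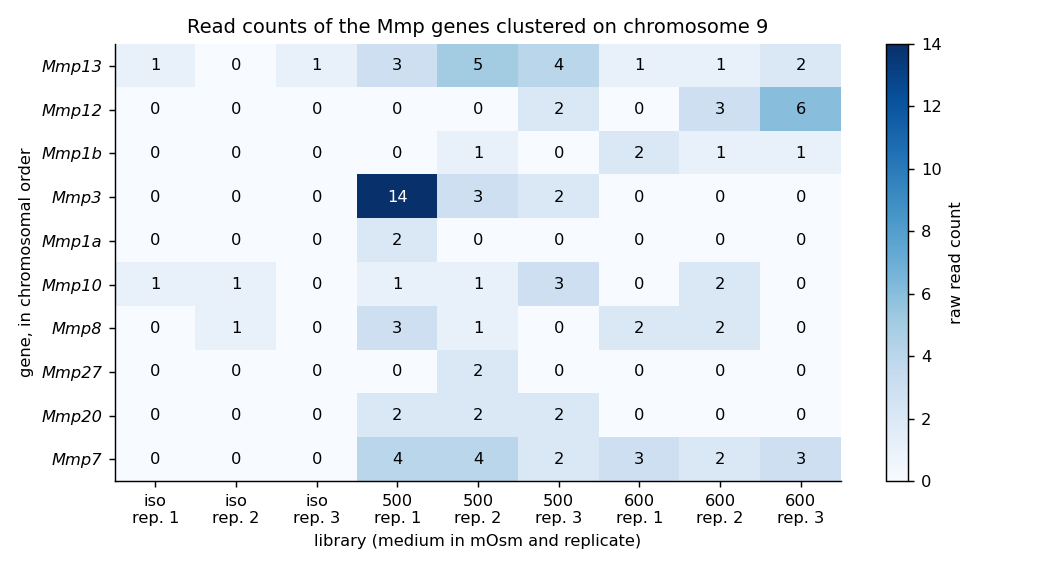
Raw read counts of the 10 Mmp genes of the chromosome 9 cluster (rows, in chromosomal order) in the 9 libraries (columns), with the shade following the count. The iso-osmolar libraries hold 1 or 2 counts in all, the 500 mOsm libraries 15 to 29 and the 600 mOsm libraries 8 to 12, and 14 of the counts are Mmp3 in 500 mOsm replicate 1.

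Among the inhibitors, Timp1 and Timp3 were lower under stress and differed in the intensity at which they were lowest, while no change of Timp2 was detected. Timp1 and Timp3 are the inhibitors whose level moved, and the 120 bases before their RefSeq starts (GRCm38.p6, 5′ to 3′) are shown for contrast with the 3 promoters above, with neither motif to capitalise.
Timp1, chrX:20870046-20870165, plus strand: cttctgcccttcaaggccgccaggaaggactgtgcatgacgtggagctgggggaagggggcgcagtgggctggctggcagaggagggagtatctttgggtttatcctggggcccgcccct
Timp3, chr10:86300292-86300411, plus strand: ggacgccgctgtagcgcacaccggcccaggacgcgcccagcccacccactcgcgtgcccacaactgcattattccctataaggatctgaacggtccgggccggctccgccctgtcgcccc

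Timp1 (chrX:20870166-20874735, plus strand), a broad inhibitor of secreted metalloproteinases that is often induced in inflammation, was the most abundant member and fell at both intensities. Its FPKM was 707, 680.5 and 691 in control medium, 452, 508 and 534 at 500 mOsm and 577, 600.4 and 606 at 600 mOsm. The libraries of the 3 treatments did not overlap, and the level was lowest at 500 mOsm. Timp1 fell by 28.0% at 500 mOsm (log2 fold change -0.47 ± 0.056 SE, adjusted p = 3.61e-05) and fell by 13.0% at 600 mOsm (-0.20 ± 0.056, adjusted p = 0.0151). It was higher at 600 than at 500 mOsm by 0.27 ± 0.056 on the log2 scale (adjusted p = 0.00289). The call at 600 mOsm against iso-osmolar medium was lost without 600 mOsm replicate 1 (adjusted p = 0.0662). Timp1 lies within the span of Syn1 on the opposite strand, with 0 shared exon bases, and Syn1 had 29 to 59 counts per library.

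Timp3 (chr10:86300372-86349506, plus strand), the inhibitor that binds to the matrix and also blocks Adam17 and Adamts proteases, fell at high intensity stress. Its FPKM was 59.1, 53.7 and 51.9 in control medium, 52.8, 48.6 and 50.6 at 500 mOsm and 38.3, 38.6 and 36.5 at 600 mOsm. Every 600 mOsm library lay below every other library, and the iso-osmolar and 500 mOsm libraries overlapped. Timp3 fell by 30.3% at 600 mOsm against iso-osmolar medium (log2 fold change -0.52 ± 0.053 SE, adjusted p = 1.14e-05) and was lower at 600 than at 500 mOsm (-0.41 ± 0.053, adjusted p = 9.50e-05). At 500 mOsm the difference from iso-osmolar medium was -0.11 (95% interval -0.23 to 0.0024, adjusted p = 0.140). Both calls at 600 mOsm held in every alternative and without each library. Timp3 shares 1733 exon bases with Syn3 on the opposite strand, and Syn3 had at most 22 counts in any library.

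Timp2 (chr11:118301069-118355740, minus strand), the inhibitor that links pro-Mmp2 to Mmp14, had FPKM of 265, 266 and 266 in control medium, 260.3, 259 and 287 at 500 mOsm and 268, 279 and 271 at 600 mOsm. The log2 fold change was 0.020 at 500 mOsm (95% interval -0.075 to 0.12, adjusted p = 0.784), 0.058 at 600 mOsm (-0.037 to 0.15, adjusted p = 0.328) and 0.038 between the intensities (-0.057 to 0.13, adjusted p = 0.559). The 600 mOsm libraries all lay above the iso-osmolar ones, as happened for 48.4% of all genes tested in one direction or the other. The intervals leave room for a change of at most 0.15 on the log2 scale.

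The summed levels are given without a test. The 3 Timp genes together reached 1013 ± 16.4 FPKM (SD, n = 3) in control medium, 817 ± 52.9 at 500 mOsm and 905 ± 18.8 at 600 mOsm. The 7 Mmp genes together reached 268 ± 7.16, 280.4 ± 4.78 and 318 ± 9.16 FPKM, of which Mmp2 and Mmp14 made 98.6% to 99.1% in every library. The Timp sum was therefore 3.78 ± 0.120 times the Mmp sum in control medium (3.65 to 3.88), 2.92 ± 0.183 times at 500 mOsm (2.71 to 3.07) and 2.85 ± 0.132 times at 600 mOsm (2.72 to 2.99). All 6 stressed libraries lay below the iso-osmolar ones and the intensities overlapped. Timp1 made 68.4% of the Timp sum in control medium, 60.9% at 500 mOsm and 65.7% at 600 mOsm. With the highest gene of each sum left out, Timp1 and Mmp2, the ratio was 2.88 in control medium, 2.93 at 500 mOsm and 2.48 at 600 mOsm, so that the lower ratio at 500 mOsm rested on those genes.

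**Figure D4:**
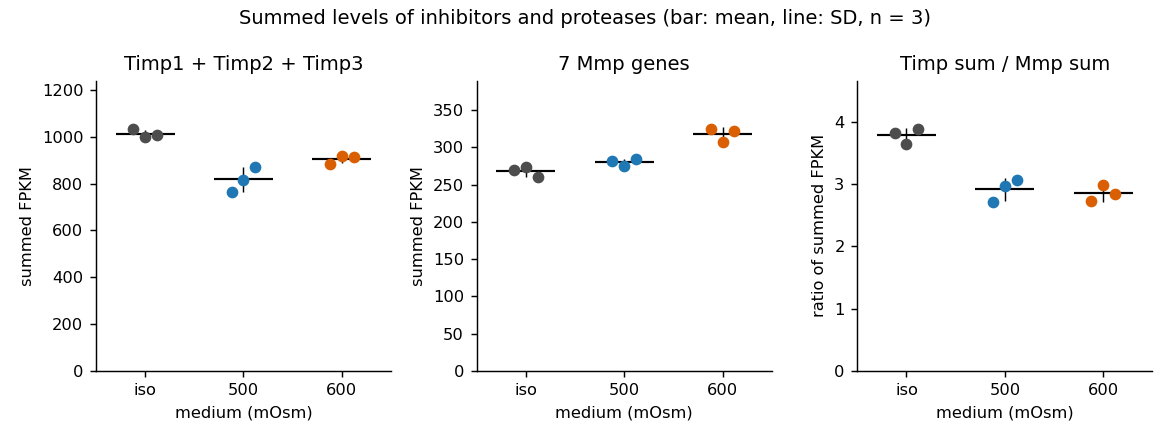
Summed FPKM of the Timp genes, summed FPKM of the Mmp genes and the ratio of the sums in each library, by osmolarity of the medium, on axes that start at 0. Points are libraries, bars are means and lines are SD (n = 3). The ratio lies between 3.65 and 3.88 in control medium and between 2.71 and 3.07 in the stressed libraries.

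Of the 17 other Mmp and Timp genes, 8 were tested. At 500 mOsm 1 rose and 0 fell, at 600 mOsm 2 rose and 0 fell, and between 600 and 500 mOsm 0 rose and 1 fell. These are 12.5%, 25.0% and 12.5% of those tested, each below the share of all genes (28.0%, 35.1% and 29.1%). Mmp25 (chr17:23629458-23645269, minus strand), a protease tethered to the membrane by a lipid anchor and known from leukocytes, changed most. It had 0 counts in all iso-osmolar libraries, 252, 190 and 185 at 500 mOsm and 9, 10 and 10 at 600 mOsm. It was at least 63.8-fold higher at 500 mOsm and at least 3.12-fold higher at 600 mOsm than a floor of 3 counts per iso-osmolar library, and it was 20.5-fold higher at 500 than at 600 mOsm. Its call at 600 mOsm against iso-osmolar medium was lost in limma on log2(FPKM + 1) (adjusted p = 0.205). Mmp25 passed the filter on low counts only through the 500 mOsm libraries, with 1 library outside them at the cutoff. Its calls are therefore not read as support. It was the only gene counted above at 500 mOsm and between the intensities, and 1 of the 2 at 600 mOsm. Of the markers of other cell types, Itgam, Ptprc, Csf1r, Pecam1, Kdr, Tek and Cdh1 were likewise highest at 500 mOsm. Lyz2, Cd68, Cdh5, Krt14, Epcam, Krt5 and the 5 neutrophil markers did not separate in this way. The part of such transcripts in the Mmp25 result was not tested. Mmp28, which was the other gene to rise at 600 mOsm (0.59 ± 0.193, adjusted p = 0.0316), lost its call without 600 mOsm replicate 1 (adjusted p = 0.148), without any single iso-osmolar library (0.0603 to 0.0953) and in DESeq2 (0.114).

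The products of the plasminogen activation genes generate plasmin, an activator of pro-metalloproteinases. Of 6 genes 3 were tested, and at 500 mOsm 1 rose and 2 fell, at 600 mOsm 0 rose and 2 fell, and between 600 and 500 mOsm 0 rose and 2 fell. Of all genes tested, 28.0%, 35.1% and 29.1% were called in these comparisons, and 3 genes are too few for a share to be read. Plau, the urokinase activator, had FPKM of 28.4, 26.1 and 26.5 in control medium, 11.3, 12.5 and 14.6 at 500 mOsm and 8.84, 7.97 and 7.21 at 600 mOsm, a log2 fold change of -1.07 ± 0.091 SE at 500 mOsm (adjusted p = 1.91e-06), -1.73 ± 0.095 at 600 mOsm (5.67e-08) and -0.66 ± 0.096 between the intensities (2.21e-04). The libraries of the 3 treatments did not overlap. Plaur, the urokinase receptor, fell by 0.42 at 500 mOsm (adjusted p = 3.03e-05) and by 0.47 at 600 mOsm (1.42e-05) on the log2 scale. Plat, the tissue activator, was 0.35 higher at 500 mOsm (adjusted p = 0.0343), a call lost without iso-osmolar replicate 2 (0.0520) or 3 (0.146) or without 500 mOsm replicate 2 (0.0627) or 3 (0.115) and in limma on log2(FPKM + 1) (0.0517) or log2(FPKM + 0.1) (0.0526), and 0.63 lower at 600 than at 500 mOsm (log2 fold change -0.63 ± 0.114, adjusted p = 0.00116).

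Of 19 Adam and Adamts proteases 15 were tested, and 3 rose and 2 fell at 500 mOsm, 4 rose and 4 fell at 600 mOsm, and 1 rose and 3 fell between 600 and 500 mOsm. These are 33.3%, 53.3% and 26.7% of those tested, beside 28.0%, 35.1% and 29.1% of all genes, so that the shares at 500 mOsm and between the intensities are near the background. Adamts1, which cuts proteoglycans such as versican, had FPKM of 15.9, 15.1 and 14.7 in control medium, 25.0, 21.9 and 22.3 at 500 mOsm and 10.5, 10.6 and 9.66 at 600 mOsm. It rose at 500 mOsm (log2 fold change 0.60 ± 0.060 SE, adjusted p = 7.56e-06) and fell at 600 mOsm (-0.55 ± 0.061, adjusted p = 2.38e-05), with a difference between the intensities of -1.16 ± 0.061 (adjusted p = 3.43e-08). Adam19 fell at both intensities, by 1.46 at 500 mOsm (1.94e-08) and by 1.16 at 600 mOsm (1.63e-07) on the log2 scale, and Adamts5, an aggrecan-cutting protease, was 0.59 (0.00208) and 0.42 (0.0152) higher, the latter call being lost without iso-osmolar replicate 1 (0.0660) and in limma on log2(FPKM + 0.1) (0.0559). Adam10, a sheddase of membrane proteins, fell by 0.47 at 600 mOsm (adjusted p = 0.00276). Further calls depended on single libraries. At 500 mOsm, Adamts2 (0.20, adjusted p = 0.0296) lost its call without iso-osmolar replicate 1 or 3 or any 500 mOsm library (0.0505 to 0.117), and Adamts10 (-0.35, 0.0207) without iso-osmolar replicate 2 (0.0633) or 500 mOsm replicate 3 (0.0810). At 600 mOsm, Adam8 (0.55, adjusted p = 0.00964) lost its call without 600 mOsm replicate 1 (0.0515), and Adam15 (0.28, 0.0236) without replicate 1 or 3 of either treatment (0.0594 to 0.0992). Adam12 was 0.32 lower at 600 than at 500 mOsm (log2 fold change -0.32, adjusted p = 0.00389), and Adam19 was 0.30 higher (0.00949).

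Of 14 genes for activators, surface partners and clearance of metalloproteinases 11 were tested, and 2 rose and 1 fell at 500 mOsm, 2 rose and 2 fell at 600 mOsm, and 1 rose and 3 fell between 600 and 500 mOsm. These are 27.3%, 36.4% and 36.4% of those tested, near the 28.0%, 35.1% and 29.1% of all genes. Cd44, a hyaluronan receptor that can hold metalloproteinases at the cell surface, fell by 0.57 at 500 mOsm (adjusted p = 1.28e-04) and by 0.56 at 600 mOsm (1.57e-04) on the log2 scale. Lrp1, an endocytic receptor that clears metalloproteinases and Timps, was 0.24 (0.00308) and 0.29 (7.74e-04) higher. Furin, the convertase that activates pro-Mmp14 and pro-Mmp11, was 0.23 higher at 500 mOsm (adjusted p = 0.0345; the call was lost without iso-osmolar replicate 1 or 3 or any of 500 mOsm replicate 1, 500 mOsm replicate 2 and 600 mOsm replicate 1, at 0.0519 to 0.161) and lower at 600 than at 500 mOsm (-0.37 ± 0.074, adjusted p = 0.00224). Bsg, a surface inducer of metalloproteinases, exceeded its iso-osmolar level by 0.28 at 600 mOsm (adjusted p = 1.63e-04) and its level at 500 mOsm by 0.22 (9.55e-04). Itgav, the integrin alpha v subunit, fell by 0.60 at 600 mOsm (adjusted p = 4.27e-05) and was lower at 600 than at 500 mOsm (-0.48, adjusted p = 2.82e-04). Pcsk6, another convertase, was lower at 600 than at 500 mOsm (-1.30 ± 0.445, adjusted p = 0.0437) and lost its call when any library other than replicate 1 of the iso-osmolar or 600 mOsm treatment was left out (0.0511 to 0.165), and in DESeq2 (0.189), in limma on log2(FPKM + 1) (0.130) or log2(FPKM + 0.1) (0.0509) and with no filter (0.0862).

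**Figure D5:**
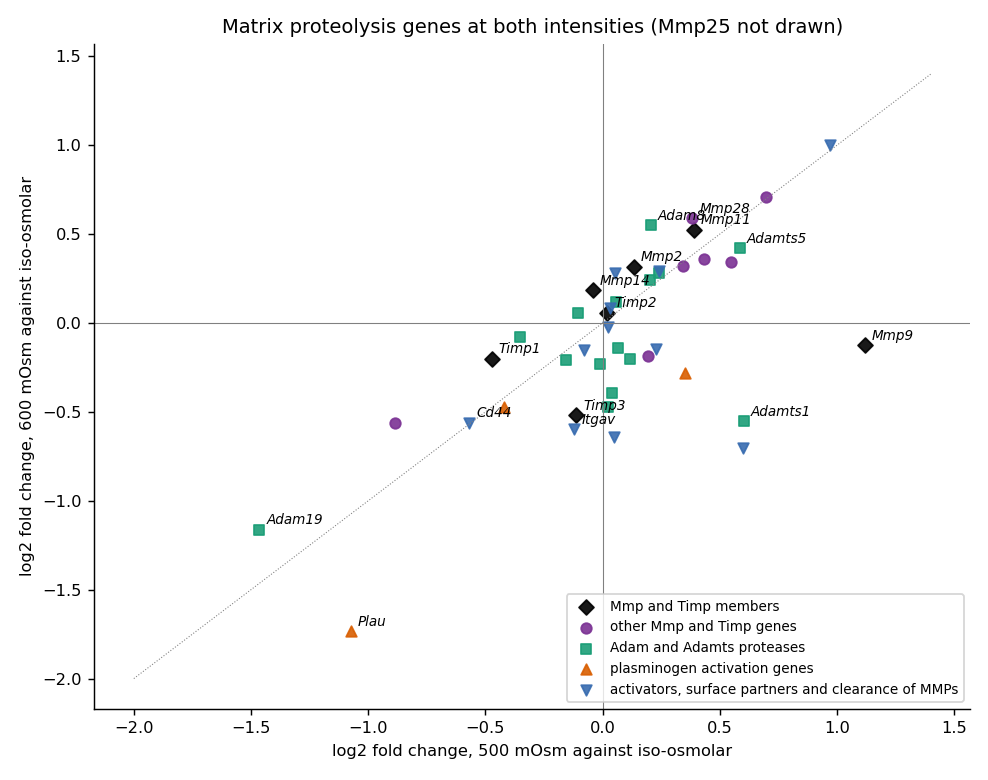
Log2 fold change against iso-osmolar medium at 500 mOsm (horizontal) and 600 mOsm (vertical) for the tested genes of matrix proteolysis, with symbols by gene group. Names are given for the Mmp and Timp members and for other genes called in a comparison with iso-osmolar medium at a change over 0.5 on the log2 scale, the dotted line marks equal changes, and Mmp25 is not drawn because it had 0 counts in control medium. Mmp9 and Adamts1 lie to the right of the dotted line and Timp1 lies to the left of it.

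Genes with the most similar response were sought for the 3 members with the largest called change against iso-osmolar medium, as the distance in the plane of the log2 fold changes at 500 and 600 mOsm, over 3 treatments. For Mmp9 the nearest of 10382 genes were Rassf5 (distance 0.115), Sat1 (0.182) and Kcnk5 (0.185), and 0 genes lay within 0.1. The SE of the Mmp9 changes, 0.295 at 500 mOsm and 0.348 at 600 mOsm, exceeded these distances, so its neighbours are uncertain. Sat1, which breaks down polyamines, had log2 fold changes of 1.27 and -0.024. For Mmp11 the nearest were 2700049A03Rik, 4930432K21Rik and Cdc25b (0.014 to 0.022), with 88 genes within 0.1. The SE of the Mmp11 changes, 0.112 at 500 mOsm and 0.111 at 600 mOsm, exceeded these distances too. In the edgeR test 2700049A03Rik (adjusted p = 0.140) and 4930432K21Rik (0.0527) were not called at 500 mOsm, where Mmp11 was. For Timp3 the nearest were Spin1, Slc25a16 and Amotl1 (0.0065 to 0.016), with 165 genes within 0.1. These distances also lay below the SE of the Timp3 changes (0.053 at both intensities), so the order of such neighbours is uncertain.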

How the data were processed

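Poly-T selected mRNA of 9 MEF libraries, 3 per treatment by the labels, was sequenced as paired-end reads that were aligned to mm10. The submitters' processing notes name STAR and CASAVA 1.8, and the counting tool, annotation and strand setting are not given in the sources used here. The authors deposited 1 table with the raw read count of each gene in each library, which is not normalized. The authors also deposited FPKM, which equals the count per gene length and library total, and fold changes and p-values of their own that were not used. Totals were 21716042 to 26740832 counts per library.

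Here counts were normalized by TMM and tested with edgeR 4.0.16 (R 4.3.3) by the quasi-likelihood test, all 9 libraries in one fit without covariates, over the 13082 genes that passed filterByExpr, with Benjamini-Hochberg adjustment and a threshold of 0.05. Standard errors are from the same fit, whose code was tested on simulated data. Members that failed the filter were called too weakly counted. All 10 members were named, with up to 3 called genes of largest change per list, comparison and direction, and the 3 nearest genes in response for 3 members. A gene of the plasminogen list is not reported here and is left out of its counts and the plot. Itgam, Ptprc, Csf1r, Lyz2, Cd68, Pecam1, Cdh1 and Mmp25 came from the fixed marker and gene lists. Which markers are quoted singly was chosen after their values were seen, as were the backgrounds for genes of high level and for untested genes. Members and lists were chosen with earlier results of these data known. Alternatives were RLE factors, library size alone, no filter, at least 10 counts in every library, DESeq2 1.42.0, a fit of the compared treatments alone, the replicate number as a block, limma 3.58.1 on log2(FPKM + 1) or log2(FPKM + 0.1), and each library left out. Promoters are RefSeq's (GRCm38.p6) and overlaps of genes come from GENCODE.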

Additional observations from a re-analysis of the deposited data

Results flagged for a closer look

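For 5 of the 7 tested genes the response to 600 mOsm differed from the response to 500 mOsm by edgeR's quasi-likelihood test of the difference itself, where 29.1% of all genes tested did. On the log2 scale, the response at 600 mOsm minus that at 500 mOsm was 0.19 for Mmp2, -1.25 for Mmp9, 0.23 for Mmp14, 0.27 for Timp1 and -0.41 for Timp3. Both responses are measured against the same iso-osmolar libraries, which cancel in this difference.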

How the results depend on the processing

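The direction of every call of a member held under every alternative run. The number of members called at 500 mOsm against iso-osmolar medium was 4, and 2 in DESeq2 (Mmp3 and Timp1), and it ranged from 1 to 4 with a library left out. At 600 mOsm against iso-osmolar medium it was 5, with a range of 3 to 5. Between 600 and 500 mOsm it was 5 with any library left out, and 4 to 6 under the other settings. Changes of sign met only differences that were not called: Mmp9 at 600 mOsm was 0.12 without iso-osmolar replicate 1 and 0.010 without 600 mOsm replicate 2 (range with a library left out -0.25 to 0.12), Mmp14 at 500 mOsm was 0.011 without iso-osmolar replicate 2 (-0.077 to 0.011), and Timp2 at 500 mOsm was -0.021 without 500 mOsm replicate 3 (-0.021 to 0.043). The cause was not tested. The ratio of the Timp to the Mmp sum without the highest gene of each was 2.88 in iso-osmolar medium and 2.48 at 600 mOsm. Of the other Mmp and Timp genes, 1 at 500 mOsm and 2 at 600 mOsm were called against iso-osmolar medium, and 3 and 4 with no filter on low counts, while with at least 10 counts in every library 0 and 1 were called. Of the Adam and Adamts genes, 4 were called between the intensities and 7 with no filter. Deviations of same-numbered libraries correlated at -0.20 on average over 9 pairs, and those of differently numbered libraries at 0.10 over 18 pairs. Of 9 libraries, 0 correlated best with its own number. Because a treatment has 3 libraries, these averages are tied to each other and cannot decide whether the replicate numbers pair the libraries. With the number as a replicate block, Mmp2 at 500 mOsm (log2 fold change 0.13, adjusted p = 0.0852) and Mmp14 at 600 mOsm (0.19, adjusted p = 0.0646) lost their calls. So did Adamts2 (0.0681), Adamts10 (0.0535), Plat (0.0639) and Furin (0.0714) at 500 mOsm, Adam15 (0.0582) at 600 mOsm and Pcsk6 (0.0734) between the intensities, and the Adam and Adamts genes called at 500 mOsm went from 5 to 3. Depth limits Mmp3, Mmp10 and Mmp13, for which a count of 3 per library is the smallest signal, and Mmp9, whose libraries held 7 to 29 counts.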
